A study of Saccharomyces cerevisiae with 7 samples.

Results

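Lariats from 4 budding yeast genes, LSB3, LDO45, FES1 and MRM2, were described in Saccharomyces cerevisiae strains with mutant or wild-type Prp8. None of them has a row in the deposited table of annotated introns, although each is read as often as many introns that do. A lariat read crosses the branch, so it gives a pair of positions, a 5' splice site and a branch point. A pair belonged to a gene's lariat if its 5' splice site was the named one on chromosome VI (LSB3), XIII (LDO45), II (FES1) or VII (MRM2, once on each strand), or if its branch lay within 2 nt of the most read branch there. The named sites were chosen by their read counts in these libraries, so their levels are given as a description and without a test. The rule gave 5 lariats, with 154 pairs and 88912 reads, of 174421 pairs and 12501667 reads in all.

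Of the 4 mutants, prp8-V1860N and prp8-V1860D change the same residue of the RNaseH domain of Prp8, while prp8-N1869D and prp8-V1870N change neighbouring residues, and all were set against PRP8-WT. In all 5 strains the chromosomal PRP8 was replaced by LYS2 (prp8D::LYS2), the allele under study was carried on a pRS313 plasmid, DBR1 was disrupted (dbr1::Kan), and the background was his3 leu2 ura3 lys2. Cells were grown in rich medium at 30C, and their RNA was depleted of ribosomal RNA and digested with RNase R. There was 1 library per strain, except for prp8-N1869D, which had a further biological sample. The 2 technical libraries of this second sample were added up to 1 value. Differences from PRP8-WT therefore have no replicate check beyond the 2 prp8-N1869D samples. Every interval below covers counting error only, at 95%, with each read taken as independent. The libraries held from 652680 to 3517283 lariat reads, of which 80.3% to 86.5% came from the 280 annotated introns. Levels are lariat reads per 10000 reads of annotated introns in the same sample.

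Splicing begins when the 2'-hydroxyl of the branch adenosine attacks the 5' splice site, which frees the upstream exon and closes the intron into a lariat. Yeast introns mostly begin with GTATGT and hold their branch in the heptamer TACTAAC, with the branch at its last A. Dbr1 opens lariats after splicing, and cells that lack it keep them. Prp8 lies at the centre of the spliceosome around its catalytic RNA. A lariat read records the branching step and does not show whether the exons were joined. A lariat's level also depends on how much of the transcript was made, and on how well the lariat was kept and read, which cannot be told apart from these counts.

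The stretches below are shown because their splice site and branch letters are what the 5 lariats share or do not share. They run 5' to 3' on the strand of the lariat, from the reference genome of build R64, with positions counted from 1, and capitals mark the first 6 bases after the 5' splice site and the heptamer around the branch. For LSB3 the whole annotated intron of the reference is given, VI:203293-203386, minus strand, and for LDO45 XIII:559783-559842, plus strand. For FES1 the 5' splice site, II:443822-443845, and the branch, II:443735-443754, both minus strand, are given apart. MRM2 is given as VII:253192-253248 on the minus strand and VII:253204-253261 on the plus strand, where the capital inside marks only the most read branch. YSC84, the paralogue of LSB3 whose intron is annotated, stands last, as VIII:138271-138408, minus strand.
LSB3: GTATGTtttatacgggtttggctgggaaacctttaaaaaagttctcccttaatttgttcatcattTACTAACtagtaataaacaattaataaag
LDO45: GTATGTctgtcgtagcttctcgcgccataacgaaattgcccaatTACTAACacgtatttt
FES1 5' splice site: tttagccgtaaaGTATGTattatg
FES1 branch: acatttatTATTAACactgt
MRM2 minus strand: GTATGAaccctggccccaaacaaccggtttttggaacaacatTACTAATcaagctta
MRM2 plus strand: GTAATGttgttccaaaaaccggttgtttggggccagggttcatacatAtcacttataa
YSC84: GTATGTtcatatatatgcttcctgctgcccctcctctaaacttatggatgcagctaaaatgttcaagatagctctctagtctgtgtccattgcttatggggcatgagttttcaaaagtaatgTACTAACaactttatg

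LSB3 and LDO45 carried both common motifs, FES1 the common 5' splice site with a variant branch heptamer, and MRM2 neither. GTATGT began 77.5% of the 280 annotated introns, GTATGA of the MRM2 minus strand 2.86%, and GTAATG of the plus strand none. TACTAAC surrounded 82.1% of annotated branches, TATTAAC of FES1 1.43% and TACTAAT, which the MRM2 minus strand holds, 1.07%. Motifs were read on the lariat's own strand and at its own position, except for TACTAAT of the MRM2 minus strand. There the most read branch is base 5 of the heptamer, while the annotated share was counted with the branch at the last A. A match is a description only.

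The lariats lay at different places in their genes. LSB3 encodes an SH3-domain protein of cortical actin patches that binds Las17. Its 5' splice site, 203386, is the first base of the annotated intron of YFR024C-A in the reference, and the most read branch, 203316, lies 23 nt before the end of that 94-nt intron. The LSB3 lariat is thus that of an intron known to the reference annotation, and what it lacks is a row in the deposited table.

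LDO45 encodes a lipid droplet protein that works with seipin, and its message is made by splicing YMR147W to the downstream reading frame that alone gives LDO16. Its 5' splice site, 559783, lies 2 nt inside the intron that the reference gives for YMR147W, 559781 to 560155, which begins with AG and ends with GA. Moved by 2 nt, to 559783 to 560157, the same 375-nt intron begins with GT, ends with AG and leaves the same spliced sequence. The most read branch, 559832, stands only 49 nt from the 5' splice site and 325 nt from that 3' end, with 15 AG dinucleotides between. In the 254 annotated introns whose end could be placed, the branch lay a median of 33 nt from it, with a range of 10 to 165 nt, and in none as far as in LDO45. These reads do not show which AG was used.

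FES1 encodes a nucleotide exchange factor of Hsp70, and alternative splicing at the end of its message is known to give a longer nuclear isoform beside the cytosolic protein. The 5' splice site read here, 443833, is 13 bases from the end of the YBR101C coding sequence, counting both ends. The most read branch, 443741, lies beyond the stop codon and 92 nt from the splice site, and the first AG follows it after 35 nt. The reference has no intron for FES1.

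MRM2 encodes a methyltransferase of the large mitochondrial ribosomal RNA, and the reference shows no intron in YGL136C. On the minus strand, the strand of the gene, the 5' splice site 253248 and the most read branch 253202 both lay inside the coding sequence, 46 nt apart. The plus-strand pair, from 253204 to 253251, covered almost the same bases in the opposite sense, 47 nt apart. Its ends lay next to those of the minus-strand pair with their roles exchanged.

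By reads the lariats sat in the middle of the annotated introns. LSB3 had 38994 reads over the 7 libraries and would rank 88 among the 280, between RPS18A with 39700 and RPL2B with 37529. LDO45 had 24158 reads and would rank 111, between MAF1 with 24313 and RPL40A with 24091. The plus strand of MRM2 had 11906 reads (rank 146, between MCM21 with 12007 and SUN4 with 11680), and the minus strand 8987 (rank 155, between SCS22 with 9001 and RPL30 with 8974). FES1 had the fewest, 4867, and would rank 182, between SEC14 with 5019 and KEI1 with 4642. Among the 97537 5' splice sites with no row in the annotated table, LSB3 ranked 4, LDO45 7, the MRM2 plus and minus strands 17 and 21, and FES1 54. At the edge of the branch window, pairs from other 5' splice sites with a branch exactly 2 nt off added 187 reads to LSB3, 133 to the MRM2 plus strand and 2 to FES1, while those 3 nt off, left out, had at most 10 reads at any of the 5.

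The LSB3 lariat was the most read of the 5 in every sample and stood highest in prp8-N1869D. Its level was 31.4 in prp8-V1860N, 32.7 in prp8-V1860D, then 66.1 and 71.1 in the first and second prp8-N1869D samples, 39.3 in prp8-V1870N and 20.8 in PRP8-WT. All 5 mutant samples were above PRP8-WT, and the prp8-N1869D samples, which differed from each other 1.08-fold, were above the other mutants. The folds over PRP8-WT were 1.51 (interval 1.46 to 1.57), 1.58 (1.52 to 1.63), 3.18 (3.07 to 3.29), 3.42 (3.31 to 3.54) and 1.89 (1.83 to 1.96) in the same order of mutants.

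The LDO45 lariat had levels of 20.5 in prp8-V1860N, 18.3 in prp8-V1860D, then 30.0 and 40.9 in the first and second prp8-N1869D samples, 29.4 in prp8-V1870N and 15.6 in PRP8-WT. The first prp8-N1869D sample and prp8-V1870N did not differ beyond counting error, with intervals of 28.9 to 31.1 and 28.6 to 30.3. The folds over PRP8-WT ran from 1.17 in prp8-V1860D to 2.63 in the second prp8-N1869D sample. The second prp8-N1869D sample stood 1.36 times above the first (interval 1.30 to 1.43), the widest gap between them among the 5 lariats.

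FES1 varied least across strains and was the only one of the 5 with a mutant below PRP8-WT. Its level was 4.05 in prp8-V1860N, 3.58 in prp8-V1860D, then 7.14 and 6.26 in the first and second prp8-N1869D samples, 4.66 in prp8-V1870N and 4.26 in PRP8-WT. The folds were 0.951 (0.869 to 1.04) in prp8-V1860N and 1.09 (0.998 to 1.20) in prp8-V1870N, neither distinguishable from PRP8-WT by counting error, and 0.842 (0.765 to 0.925) in prp8-V1860D. In prp8-N1869D they were 1.68 (1.53 to 1.84) and 1.47 (1.34 to 1.61), but the technical libraries of the second sample stood at 5.55 and 7.04, a ratio of 0.789 (0.677 to 0.918), and without either of them the fold was 1.30 to 1.65.

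The MRM2 minus strand had levels of 6.62 in prp8-V1860N, 6.55 in prp8-V1860D, then 14.97 and 15.2 in the first and second prp8-N1869D samples, 10.7 in prp8-V1870N and 5.44 in PRP8-WT. Its folds were 1.22 and 1.20 in the V1860 mutants, 2.75 and 2.80 in the prp8-N1869D samples, with 1.98 in prp8-V1870N. The technical libraries of the second sample stood at 13.4 and 17.2, a ratio of 0.780 (0.708 to 0.859), while the 2 prp8-N1869D samples differed 1.02-fold.

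On the MRM2 plus strand the levels were 8.64 in prp8-V1860N, 11.7 in prp8-V1860D, then 15.8 and 20.03 in the first and second prp8-N1869D samples, 14.9 in prp8-V1870N and 6.46 in PRP8-WT. It differed most from the minus strand in prp8-V1860D, where its fold was 1.81 (1.70 to 1.92) against 1.20 (1.12 to 1.30) on the minus strand. Reads on the plus strand per read on the minus strand were 1.31 in prp8-V1860N, 1.78 in prp8-V1860D, then 1.06 and 1.32 in the prp8-N1869D samples, 1.39 in prp8-V1870N and 1.19 in PRP8-WT. The value of prp8-V1860D, with an interval of 1.66 to 1.91, lay above the intervals of the other 5 samples.

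**Figure D1:**
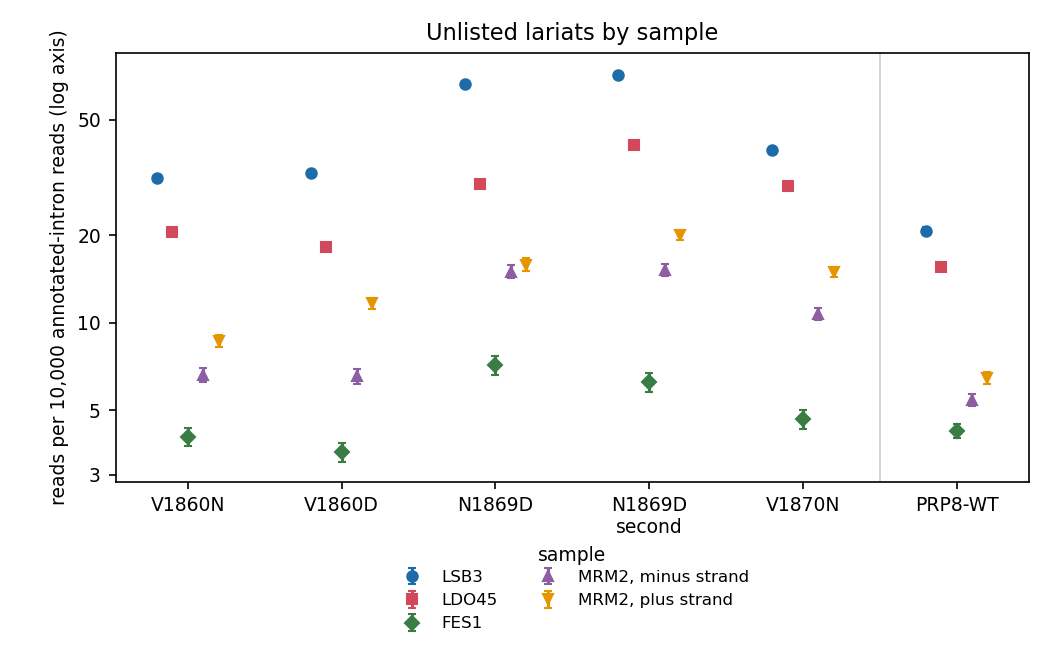
Lariat reads per 10000 annotated-intron reads (log axis) of the 5 unlisted lariats in each sample, with exact Poisson 95% intervals for counting error. LSB3 was highest in every sample, at 66.1 and 71.1 in the prp8-N1869D samples against 20.8 in PRP8-WT, and FES1 lowest, between 3.58 and 7.14.

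All 5 lariats are short, with 46 to 92 nt between 5' splice site and branch, and short annotated introns also stood higher in the mutants. Among the 5 lariats, 3 were at least 2-fold above PRP8-WT in the first prp8-N1869D sample, 4 in the second and 1, the MRM2 plus strand, in prp8-V1870N, with 0 in prp8-V1860N and 0 in prp8-V1860D. The share of the 263 annotated introns with at least 50 reads that were so was 25.9%, 31.6% and 10.6% in the first prp8-N1869D sample, the second and prp8-V1870N, and 0.76% in prp8-V1860N and 0.76% in prp8-V1860D. For the 118 of these introns with a distance of at most 100 nt the shares were 53.4%, 66.1%, 22%, 1.69% and 1.69% in that order. For the 2482 unlisted 5' splice sites with at least 50 reads, these lariats included, they were 38.8%, 41.7%, 39.7%, 21.4% and 29.3%. These counts take the 2 strands of MRM2 apart, although whether they are 1 lariat or 2 cannot be told. Both were among the 3 in the first prp8-N1869D sample. With only 5 lariats, their counts are near the shares of the short annotated introns.

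The median log2 fold of the short annotated introns was 0.29 in prp8-V1860N, 0.24 in prp8-V1860D, then 1.05 and 1.30 in the prp8-N1869D samples, with 0.65 in prp8-V1870N. Over the 145 introns of more than 100 nt it was -0.05, -0.13, -0.34, -0.33 and -0.19 in the same order. Throughout, ribosomal protein genes are those whose names begin with RPL or RPS, so RPP1B, with 242 nt, was counted outside them. None of these genes has an annotated intron with a distance of at most 100 nt. The 42 longer introns outside them had medians of -0.10, -0.30, -0.10, -0.17 and -0.22. The medians of the 5 lariats, with both MRM2 strands counted, were 0.40, 0.27, 1.29, 1.48 and 0.92.

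Within the 118 short introns LSB3 stood high and FES1 low. The LSB3 fold exceeded that of 87.3%, 89.8%, 91.5%, 86.4% and 76.3% of them, in the order of mutants used above. FES1 exceeded 5.08%, 10.2%, 28.0%, 14.4% and 11.02%. LDO45 lay between 45.8% and 76.3%, the MRM2 minus strand between 49.2% and 80.5%, and the MRM2 plus strand between 72.0% and 94.9%, the last in prp8-V1860D. Counted per read of the introns of at most 100 nt, a denominator chosen after the data were seen, the log2 folds of LSB3 were 0.41, 0.28, 0.94, 0.73 and 0.27, and those of FES1 -0.26, -0.62, 0.012, -0.49 and -0.53. With that denominator LDO45 in prp8-V1860D, the MRM2 minus strand in prp8-V1860D, and FES1 in the second prp8-N1869D sample and in prp8-V1870N turned below PRP8-WT. The higher level of these lariats cannot be told apart from the higher level of short introns as a class, whose source was not tested.

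**Figure D2:**
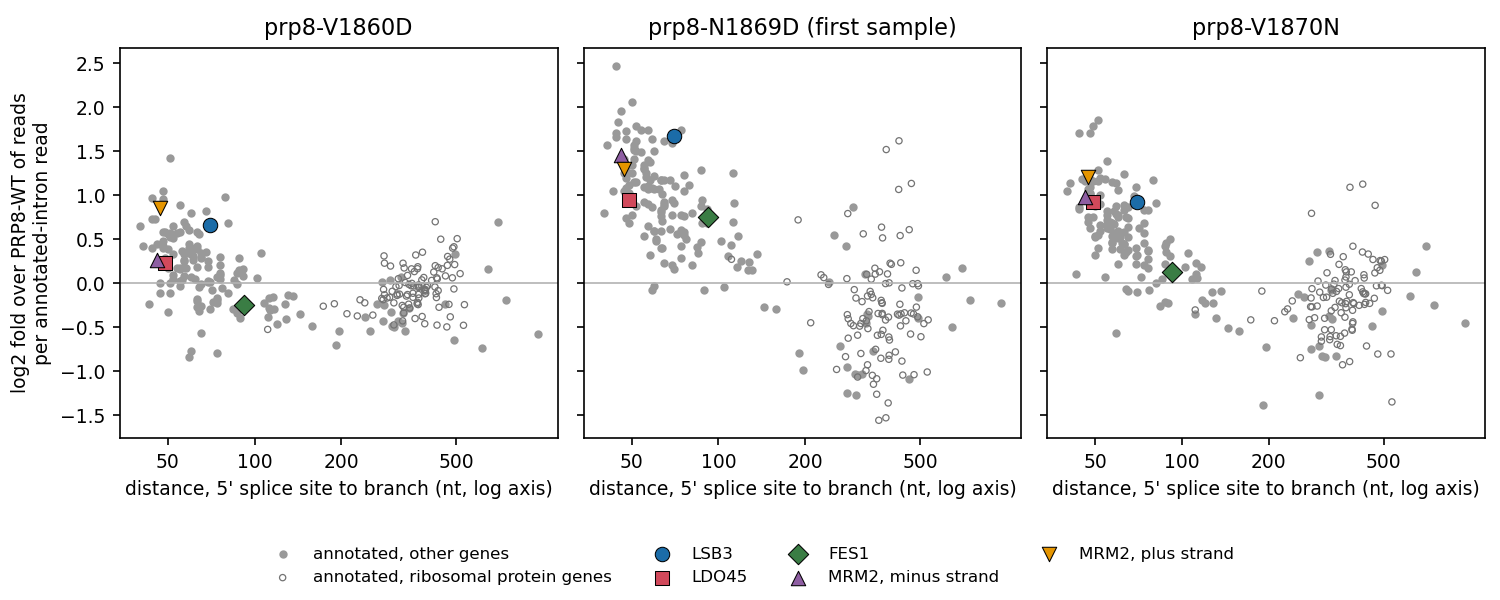
Log2 fold over PRP8-WT of reads per annotated-intron read against the distance from 5' splice site to branch (log axis), in prp8-V1860D, the first prp8-N1869D sample and prp8-V1870N. Each small point is 1 annotated intron with at least 50 reads, open for ribosomal protein genes, and the large symbols are the 5 lariats, which lie among the short introns at 46 to 92 nt.

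YSC84, which like LSB3 encodes an SH3-domain protein of actin patches, has a longer annotated intron, with 127 nt between 5' splice site and branch. Its folds over PRP8-WT lay between 0.845 and 1.13, from levels of 17.7 in prp8-V1860N, 13.3 in prp8-V1860D, then 17.4 and 17.2 in the prp8-N1869D samples, 14.6 in prp8-V1870N and 15.7 in PRP8-WT. The number of LSB3 reads per YSC84 read was 1.78, 2.47, 3.79, 4.14 and 2.69 in those mutant samples and 1.32 in PRP8-WT. In each mutant the ratio stood above the PRP8-WT interval of 1.27 to 1.37, and the paralogues also differ in length.

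Of 6 annotated introns of actin cytoskeleton genes, 1, that of the cofilin gene COF1 (46 nt, log2 fold 1.96 and 2.48 in the prp8-N1869D samples, with 1.16 in prp8-V1870N), was at least 2-fold above PRP8-WT in prp8-N1869D and prp8-V1870N, and none in the V1860 mutants. ACT1, with 265 nt, had log2 folds of -0.72 and -0.46 in the prp8-N1869D samples. Of 6 introns in genes of mitochondrial proteins, those of AIM11 (55 nt) and of QCR10 (48 nt), a subunit of the cytochrome bc1 complex, were at least 2-fold higher in both prp8-N1869D samples. At least 2-fold higher were 25.9% and 31.6% of the 263 annotated introns in the first and second prp8-N1869D samples, with 10.6% in prp8-V1870N. COX4, a cytochrome c oxidase subunit with 299 nt, was at least 2-fold lower in prp8-V1870N and both prp8-N1869D samples. QCR9, another bc1 subunit with 191 nt, was so in the second prp8-N1869D sample and in prp8-V1870N. Of the 263 annotated introns, 6.46%, 10.3% and 1.14% were at least 2-fold lower in the first prp8-N1869D sample, the second and prp8-V1870N. COX5B, with 1 read, was left out. The median log2 folds of the actin list were 0.18 in prp8-V1860N, -0.19 in prp8-V1860D, then 0.32 and 0.31 in the prp8-N1869D samples, with -0.02 in prp8-V1870N. Those of the mitochondrial list were 0.09, -0.07, 0.90, 0.73 and 0.30 in the same order, and those of the 263 annotated introns 0.07, 0.00, 0.31, 0.22 and 0.13.

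The annotated introns most like each lariat in their log2 folds over the 5 mutant samples, among 251 with at least 200 reads, were SMD2, PHO85 and RPS24A for LSB3, at root mean square differences of 0.11 to 0.13. For LDO45 they were TFC3, RPL28 and MAF1 (0.07 to 0.11), and for FES1 CQD1, SCS22 and the first intron of RPL7A (0.09 to 0.12). For the MRM2 minus strand they were RPS14B, RRT8 and the second intron of EFM5 (0.11 to 0.15), and for the plus strand REC114, the first intron of VMA9 and PHO85 (0.13 to 0.17). Not all of these introns are short: RPS24A has 423 nt between 5' splice site and branch, RPL28 467, the first intron of RPL7A 427, RPS14B 382 and CQD1 112. The others have 47 to 79 nt. All of these folds share the same PRP8-WT library.

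Branch positions within a lariat were spread like those of annotated introns for LSB3 and FES1, and less so for the other 3. Of LSB3 reads from 203386, 55.2% had the branch at the most read base and 40.2% at the A before it. FES1 had 54.0% and 38.7%, and the 227 annotated introns with at least 1000 reads had medians of 46.2% and 44.5%, counted from the annotated branch. LDO45 had 77.7% at 559832 and 16.4% at 559831, and quartiles of the annotated introns at the branch were 33.4% and 59.1%. On the MRM2 minus strand 86.7% had the branch at 253202, base 5 of the TACTAAT heptamer, and 12.7% at 253201, the base where the other lariats with this kind of heptamer peaked. Of the plus-strand MRM2 reads within 2 nt of 253251, 96.0% had the branch at that base, and of all plus-strand MRM2 reads 88.7%, since 687 reads had it at 253254, outside this window. In prp8-V1860D the most read LSB3 branch held 60.2% (58.9 to 61.5) against 54.1% (52.8 to 55.4) in PRP8-WT. That share was also higher than in PRP8-WT for 176 of the 227 annotated introns in prp8-V1860D, with a median difference of 1.53 percentage points. In prp8-V1860D it was higher for LDO45 too (80.8% against 77.4%), while FES1 overlapped PRP8-WT. Both MRM2 strands were lower there at their most read branch, at 83.7% against 88.1% on the minus strand and 94.5% against 97.3% on the plus strand. The minus-strand branch compared here is base 5 of its heptamer, while the annotated branch is mostly at the last A. At the last A of the MRM2 minus strand, 253201, the share was higher in prp8-V1860D. It was 15.7% (13.7 to 17.9) against 11.7% (10.2 to 13.4) in PRP8-WT. In prp8-V1870N the share at the most read LSB3 branch was 57.4% (56.1 to 58.7), above PRP8-WT. Of the 227 annotated introns, 99 had a higher share in prp8-V1870N than in PRP8-WT, with a median difference of -0.38 percentage points.

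**Figure D3:**
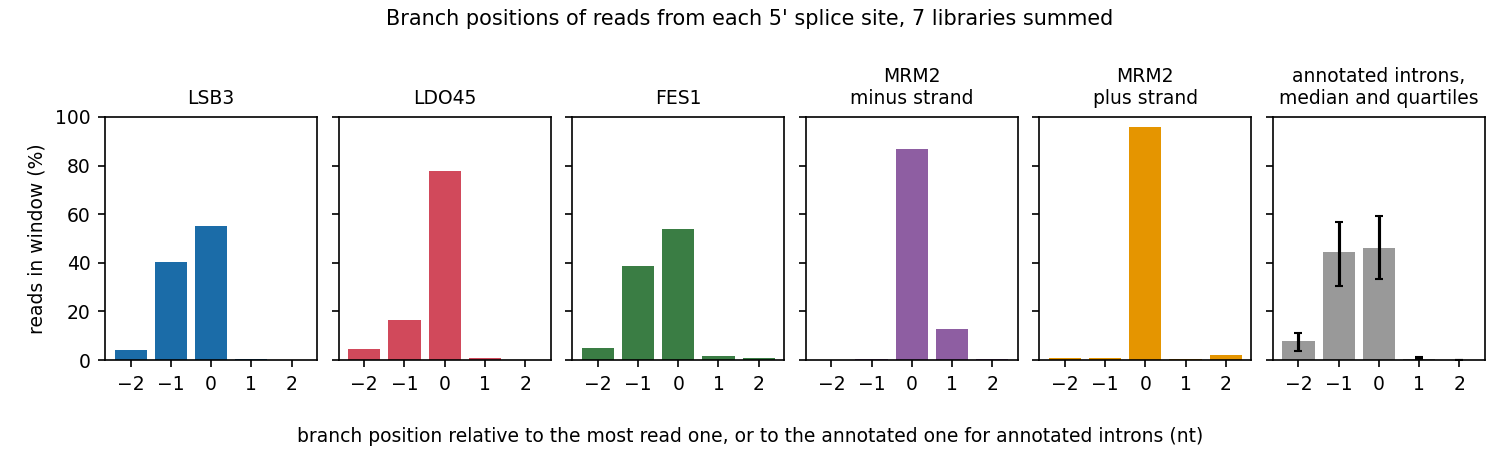
Share of reads from each 5' splice site with a branch 2 nt before to 2 nt after the most read branch (the annotated one for annotated introns), 7 libraries summed. LSB3 (55.2% and 40.2% at 0 and -1) and FES1 (54.0% and 38.7%) resemble annotated introns (medians with quartile bars), while the MRM2 lariats have 86.7% and 96.0% of the reads in this window at a single position; the plus-strand branch at +3 nt lies outside it.

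Other 5' splice sites were rare at the LDO45, FES1 and MRM2 branches. The named site had 99.1% of the reads of the branch window for LDO45, 99.1% for FES1, 99.01% for the MRM2 minus strand and 98.4% for the plus strand. At the LSB3 branch, 11.01% of reads had the 5' splice site at 203387, 1 base upstream. The pair of 203387 with branch 203317 (2023 reads) gives the same joined letters as the most read pair (18881 reads), because the base before the splice site and the branch base are both A, so these 2 pairs cannot be told apart by sequence. The pair of 203387 with branch 203316 (2074 reads) has other joined letters, with 1 more A at the join.

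A few minor sites held a higher share in the V1860 mutants, and they were picked out after their values were seen. The LDO45 branch also took 5' splice sites at 559714 and 559721, which lie 69 and 62 nt upstream of the main one. Their share of LDO45 reads was 1.38% (interval 1.04 to 1.79) in prp8-V1860N, 1.67% (interval 1.26 to 2.16) in prp8-V1860D, then 0.302% and 0.332% in the prp8-N1869D samples, 0.219% in prp8-V1870N and 0.507% (0.325 to 0.753) in PRP8-WT. The 2 V1860 mutants were above the other samples, on 55 and 56 reads against 9 to 24. The MRM2 plus-strand site was also joined to branches at 253253 and 253254, 2 and 3 nt further on. They made up 11.2% of its reads (interval 9.70 to 12.8) in prp8-V1860N, 14.5% (interval 13.004 to 16.02) in prp8-V1860D, then 4.89% and 4.20% in the prp8-N1869D samples, 6.60% in prp8-V1870N and 3.97% (3.15 to 4.93) in PRP8-WT. Again both V1860 mutants were highest, and their intervals did not overlap that of PRP8-WT, nor did that of prp8-V1870N (5.63 to 7.69).

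**Figure D4:**
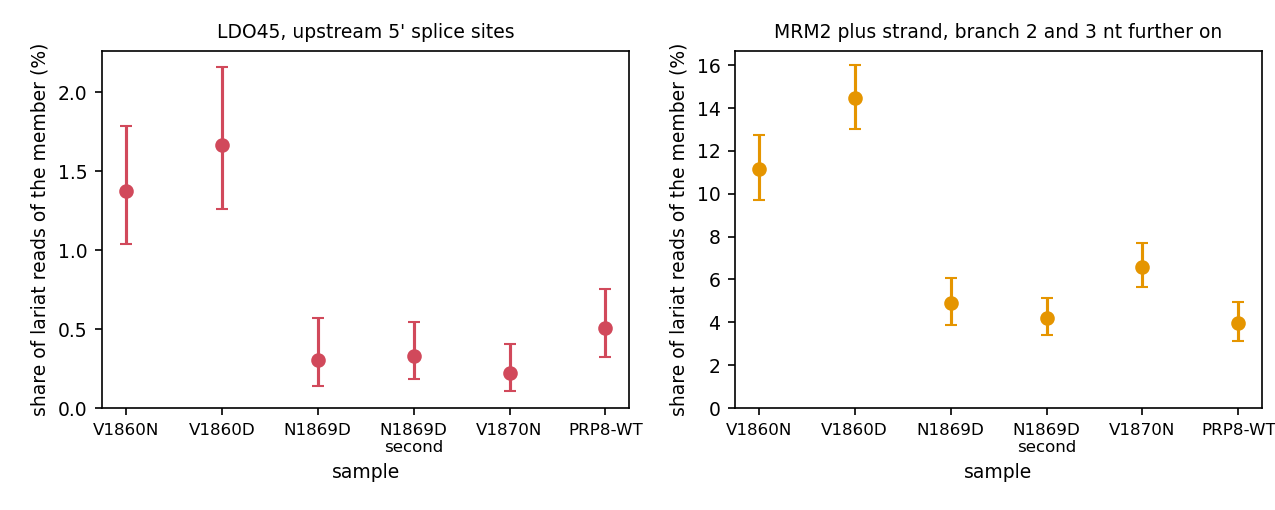
Share of lariat reads from minor sites in each sample with exact binomial 95% intervals: on the left the upstream 5' splice sites of LDO45, on the right the plus-strand MRM2 branches 2 and 3 nt beyond the main one. The V1860 mutants stand highest in both panels, at 1.38% and 1.67% for LDO45 and 11.2% and 14.5% for MRM2.

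MRM2 had more opposite-strand reads than the other 3 genes. Mirror reads are those on the other strand whose ends lie within 10 nt of a lariat's ends with their roles exchanged. They numbered 6.80 per 100 reads for LSB3, 1.86 for LDO45, 0.0845 for FES1 and 134.4 for MRM2, counted against its minus strand. The 227 annotated introns with at least 1000 reads had a median of 4.53, and 1 of them, EPT1 with 297, exceeded MRM2, with PAL2 at 133.9 just below it. The median differed with the base before the 5' splice site, at 9.24 after A, 7.46 after T, 2.70 after G and 1.86 after C. MRM2 has T there, and the other introns with T that stood highest, HNT2 and APS3, had 87.6 and 63.4. These introns were named after their values were seen. The MRM2 plus-strand site was itself chosen by its reads, and its most read pair holds 10560 of the 11861 mirror reads of MRM2. The high mirror value of MRM2 therefore follows from that choice and is a description only.

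The 20 letters around the join of the 2 MRM2 strands, branch side in lower case and 5' splice site side in capitals, show how alike they are, with the plus-strand pair given as its reverse complement. The minus-strand pair used is the one with its branch at 253201.
MRM2 minus strand joined: acattactaaGTATGAACCC
MRM2 plus strand, reverse complement: acattactatGTATGAACCC
They differ by A10T, counting from the 5' end and giving the minus-strand letter first, at the last letter before the join, which is the branch base. Of the MRM2 mirror reads 89.0% lay in pairs whose letters equal those of the lariat with T in place of the branch A, against 91.9% in HNT2 and 83.4% in APS3. HNT2 and APS3 were exceptions among the 37 annotated introns with T before the 5' splice site. The next highest of these, SAR1, had 4.25%, and PRE3, for example, had 0.28%. That letter is the genomic base before the 5' splice site, so only lariats with T there can have such pairs, and LSB3, LDO45, FES1, EPT1 and PAL2, which have A or G there, cannot. The sources used here do not give how strand was assigned, so whether the 2 strands of MRM2 come from 1 lariat or 2 cannot be told apart.

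**Figure D5:**
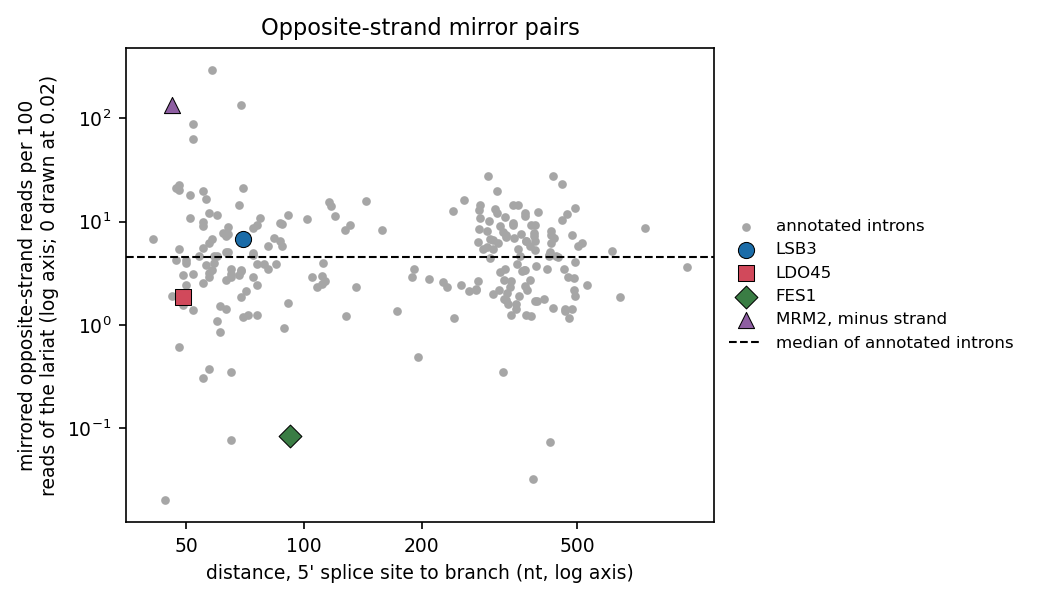
Mirrored opposite-strand reads per 100 reads of each lariat (log axis) against the distance from 5' splice site to branch (log axis), 7 libraries summed. Grey points are the 227 annotated introns with at least 1000 reads, with a median of 4.53 (dashed line), and MRM2 at 134.4 stands near the top while FES1 at 0.0845 stands near the bottom.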

How the data were processed

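Lariat sequencing libraries were made from total RNA treated to remove ribosomal RNA and then with RNase R, per the labels' protocols. Reads were handled with Trimmomatic and Bowtie2, and positions refer to build R64, per the submitters' processing notes. The sources used here do not give their versions. The deposited tables hold counts of filtered branch-spanning reads, made by the authors, per pair of splice site and branch and per annotated intron, and annotated counts include branches within 2 nt, per the file headers. The reference genome used here has the same build. The deposited tables of aberrant sites and rates, with 70 columns, were not used.

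Groups follow the labels. The 5 lariats, the lists and the limits were chosen with earlier results of these data known. Levels are counts per 10000 reads of annotated introns, with exact Poisson intervals. Folds have exact conditional binomial intervals and shares exact binomial (Clopper-Pearson) intervals, all at 95%. None covers variation between samples, since most strains had 1 library. Each read is taken as independent, although reads were not counted by molecular identifiers, so the intervals can be too narrow even for counting error. Between the 2 libraries added up to 1 value, the ratio interval excluded 1 for FES1 (0.677 to 0.918). It also did so for the MRM2 minus (0.708 to 0.859) and plus (0.832 to 0.985) strands, but not for LSB3 and LDO45. No tests between strains were made: with 2 samples against 1, an exact permutation test cannot go below 1 in 3. Log2 folds of background introns used a pseudocount of 0.5 reads. The text names the 5 lariats, up to 5 pairs of each, YSC84, annotated introns next to each by reads, the 3 with the most similar folds, and members of 2 short lists. The introns of the mirror comparison and the minor sites were chosen with their values known.

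The tools were Python 3.11.15, biopython 1.88, matplotlib 3.10.9, scipy 1.17.1, pandas 2.3.3 and numpy 2.4.6. DESeq2 1.42.0 and edgeR 4.0.16, under R 4.3.3, gave scaling factors only. The fold interval and a median-centred fold, a form not used above, were tested on simulated counts. The scaling factors were not tested so. Alternatives covered denominators, scaling, the branch window, the minimum of reads per pair and each technical library.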

Additional observations from a re-analysis of the deposited data

Results flagged for a closer look

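Near the LSB3 intron, a further minus-strand pair outside the rule, from 203382 to 203312, had 217 reads over the 7 libraries. Both its ends lie 4 nt downstream of those of the most read LSB3 pair, so the distance is also 70 nt. It had 36 reads in prp8-V1860N, 30 in prp8-V1860D, then 33 and 47 in the first and second prp8-N1869D samples, 40 in prp8-V1870N and 31 in PRP8-WT. The most read pair at LDO45 outside the rule lay on the opposite strand, from 559829 to 559708, with 14 reads. Both are signals in pairs that no comparison above used, and their sources were not tested.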

How the results depend on the processing

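Values here are log2 folds over PRP8-WT unless named otherwise, and another denominator or scaling shifts all 5 lariats of a sample by the same amount. With all lariat reads as the denominator, LSB3 had 1.58 in the first prp8-N1869D sample, 1.68 in the second and 0.81 in prp8-V1870N. LDO45 had 0.86 in the first prp8-N1869D sample, 1.30 in the second and 0.81 in prp8-V1870N. The MRM2 minus strand had 0.87 in prp8-V1870N. The plus strand of MRM2 had 1.54 in the second and 1.10 in prp8-V1870N. With only annotated introns outside ribosomal protein genes as the denominator, LSB3 had 0.59 in prp8-V1860D, 1.35 in the first prp8-N1869D sample, 1.33 in the second and 0.71 in prp8-V1870N. LDO45 had 0.16 in prp8-V1860D, 0.63 in the first prp8-N1869D sample, 0.94 in the second and 0.70 in prp8-V1870N. FES1 had 0.43 in the first prp8-N1869D sample, 0.11 in the second and -0.086 in prp8-V1870N. The MRM2 minus strand had 1.15 in the first prp8-N1869D sample, 1.03 in the second and 0.77 in prp8-V1870N. The plus strand of MRM2 had 0.98 in the first prp8-N1869D sample, 1.18 in the second and 0.99 in prp8-V1870N. With edgeR TMM scaling, LSB3 had 0.51 in prp8-V1860N, 1.42 in the first prp8-N1869D sample, 1.54 in the second and 0.79 in prp8-V1870N. LDO45 had 0.31 in prp8-V1860N, 0.69 in the first prp8-N1869D sample, 1.16 in the second and 0.79 in prp8-V1870N. FES1 had 0.49 in the first prp8-N1869D sample and 0.32 in the second. The MRM2 minus strand had 1.21 in the first prp8-N1869D sample, 1.25 in the second and 0.85 in prp8-V1870N. The plus strand of MRM2 had 1.04 in the first prp8-N1869D sample, 1.40 in the second and 1.08 in prp8-V1870N. With DESeq2 size factors, LSB3 had 0.52 in prp8-V1860N, 1.37 in the first prp8-N1869D sample, 1.48 in the second and 0.78 in prp8-V1870N. LDO45 had 0.32 in prp8-V1860N, 0.65 in the first prp8-N1869D sample, 1.10 in the second and 0.78 in prp8-V1870N. FES1 had 0.45 in the first prp8-N1869D sample, 0.26 in the second and -0.0087 in prp8-V1870N. The MRM2 minus strand had 1.16 in the first prp8-N1869D sample, 1.19 in the second and 0.84 in prp8-V1870N. The plus strand of MRM2 had 0.996 in the first prp8-N1869D sample, 1.34 in the second and 1.07 in prp8-V1870N. With introns of at most 100 nt as the denominator, added after the data were seen, LSB3 had 0.41 in prp8-V1860N, 0.28 in prp8-V1860D, 0.94 in the first prp8-N1869D sample, 0.73 in the second and 0.27 in prp8-V1870N. LDO45 had 0.21 in prp8-V1860N, -0.15 in prp8-V1860D, 0.21 in the first prp8-N1869D sample, 0.35 in the second and 0.27 in prp8-V1870N. FES1 had -0.26 in prp8-V1860N, -0.62 in prp8-V1860D, 0.012 in the first prp8-N1869D sample, -0.49 in the second and -0.53 in prp8-V1870N. The MRM2 minus strand had 0.10 in prp8-V1860N, -0.11 in prp8-V1860D, 0.73 in the first prp8-N1869D sample, 0.44 in the second and 0.33 in prp8-V1870N. The plus strand of MRM2 had 0.23 in prp8-V1860N, 0.48 in prp8-V1860D, 0.56 in the first prp8-N1869D sample, 0.59 in the second and 0.55 in prp8-V1870N. Under every denominator or scaling other than the introns of at most 100 nt, LSB3, LDO45 and both MRM2 strands stayed above PRP8-WT in all 5 mutant samples. FES1 in prp8-V1870N, whose interval includes no change, fell on either side of PRP8-WT. With the named 5' splice site and branch window only, 1 fold moved, that of the MRM2 plus strand in prp8-V1860D, to 0.73, because pairs from other branches are left out. A minimum of 10 reads per pair moved none of the 25 folds by more than counting error, and a branch window of 5 nt none of the 30 shares. With the exact branch position only, the share of reads in the most read pair of LSB3 became 48.9% in prp8-V1860N, 56.3% in prp8-V1860D, then 50.8% and 49.5% in the prp8-N1869D samples, with 53.9% in prp8-V1870N and 50.9% in PRP8-WT. That of the MRM2 plus strand became 86.1% in prp8-V1860N and 92.8% and 92.8% in the prp8-N1869D samples. Without either technical library, the second prp8-N1869D sample had 1.77 to 1.78 for LSB3, 1.39 to 1.40 for LDO45, 0.38 to 0.73 for FES1, 1.30 to 1.66 for the MRM2 minus strand and 1.56 to 1.71 for the plus strand. The cause of the other shifts was not tested. No paired analysis was possible because each group has 1 sample and the replicate numbers only name the technical libraries. FES1, with 660 to 1295 reads per sample, has the widest intervals.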
